A study of Mus musculus with 18 samples.

Results

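The 39 genes described here encode proteins of S phase, the part of the cell cycle in which DNA is copied: the Mcm2-7 helicase, the factors that license and start replication origins, the sliding clamp and its loader, DNA polymerases and primase, enzymes of deoxynucleotide supply, strand maturation and repair factors, chromatin and histone factors, and regulators of the step from G1 to S. They were taken by symbol from the 45703 genes of the deposited expression table. All 39 passed a filter of at least 1 TPM (a level corrected for exon length and scaled to the same total in each library) in at least 3 of 18 libraries, as did 14229 genes in all. The study set mouse T helper 17 (Th17) cells that lack ATP-citrate lyase, which makes acetyl-CoA from citrate in the cytosol, or the glucose transporter GLUT3 against wild-type cells, with and without acetate, another source of acetyl-CoA. The 18 libraries form 6 groups of 3. ACLYKO cells were Acly-fl/fl Cd4-cre, and were cultured with acetate in the first group and without it in the second. GLUT3KO cells were Slc2a3-fl/fl Cd4-cre, and were cultured with acetate in the third group and without it in the fourth. WT cells, labelled wild type with no Cre stated, were cultured with acetate in the fifth group and without it in the sixth. All groups were naive CD4+ T cells activated through CD3 and CD28 for 48 h with Th17 cytokines and kept for a further 24 h with or without acetate. All were then restimulated for 5 h with PMA and ionomycin while brefeldin A and monensin blocked secretion, so every value is that of a restimulated culture. The acetate dose reads 20 mM in the sample protocols and 10 mM in the series text. Cd4-cre acts during thymic development and in the whole T cell lineage, so the loss precedes activation. The background label is C57BL/6, but in 6 libraries another number stands in that label, which was not used. Whether each library had its own mouse is not stated in the labels, and p-values here therefore rest on a spread among libraries that may be technical.

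Replication origins are licensed in G1, when the origin recognition complex, Cdc6 and Cdt1 load the ring of Mcm2 to Mcm7 onto DNA. In S phase Cdc45 and the GINS complex turn that ring into the active helicase, polymerase alpha and primase start new strands, the clamp loader sets PCNA around the DNA, and polymerases delta and epsilon extend it. Most of these genes are known targets of E2F transcription factors, which the retinoblastoma protein holds back until cyclin D and cyclin E kinases release them. Activated T cells divide quickly and are known for strong expression of this set of genes.

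E2F factors bind short GC-rich letters near transcript starts, and the promoters of 3 genes are shown because Mcm6 has 3 matches, the most of these genes, Mcm5 is 1 of those with 2, and Orc1 had the smallest p between the untreated knockouts. Windows from 250 bases before to 50 bases after an annotated transcript start (RefSeq, GRCm38.p6, on the strand of the gene) were found for 32 of the 39 genes and were searched on both strands for TTTGGCGC, TTTCCCGC, TTTCGCGC and TTTGCCGC. Letters of this kind stood in the windows of 13 of the 32 genes (40.6%), against 704 of 27025 genes (2.6%) in the whole table of windows. The letters CCAAT, on either strand, stood in the windows of 19 of the 32 (59.4%), against 41.1% of all genes. Matches can overlap each other, as in Mcm5 and Mcm6. The 13 genes with a match were Cdc6, Cdt1, Gins3, Lig1, Mcm3, Mcm5, Mcm6, Mcm7, Orc1, Pola1, Pold1, Rfc3 and Uhrf1. The whole windows of Mcm6 (chr1:128359656-128359955, minus strand), Mcm5 (chr8:75109259-75109558, plus strand) and Orc1 (chr4:108579204-108579503, plus strand) follow, with matched letters in capitals.
Mcm6: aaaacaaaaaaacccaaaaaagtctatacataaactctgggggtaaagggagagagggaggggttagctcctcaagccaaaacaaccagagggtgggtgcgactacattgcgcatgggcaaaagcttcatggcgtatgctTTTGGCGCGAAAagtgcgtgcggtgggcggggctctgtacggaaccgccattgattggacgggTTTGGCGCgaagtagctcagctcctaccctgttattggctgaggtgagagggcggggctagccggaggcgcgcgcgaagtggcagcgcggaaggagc
Mcm5: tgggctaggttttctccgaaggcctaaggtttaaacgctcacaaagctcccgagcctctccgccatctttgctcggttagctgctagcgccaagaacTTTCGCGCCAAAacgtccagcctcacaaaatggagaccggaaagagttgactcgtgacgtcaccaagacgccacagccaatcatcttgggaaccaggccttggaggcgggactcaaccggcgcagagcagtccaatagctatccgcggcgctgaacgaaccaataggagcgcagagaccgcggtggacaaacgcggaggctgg
Orc1: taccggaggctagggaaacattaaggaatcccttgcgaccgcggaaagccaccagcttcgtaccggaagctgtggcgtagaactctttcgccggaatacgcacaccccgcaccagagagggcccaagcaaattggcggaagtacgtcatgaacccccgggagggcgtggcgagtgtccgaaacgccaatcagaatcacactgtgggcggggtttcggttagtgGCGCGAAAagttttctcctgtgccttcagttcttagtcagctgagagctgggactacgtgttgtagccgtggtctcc

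Stretches of 30 bases around a match are given for other genes that the results below turn on, with the matched letters again in capitals and the distance of the first matched letter from the transcript start of that window. They are Cdc6 (chr11:98908002-98908031, plus strand, position -138), Lig1 (chr7:13278841-13278870, plus strand, 26), Gins3 (chr8:95633507-95633536, plus strand, -41), Mcm3 (chr1:20820263-20820292, minus strand, 38), Mcm7 (chr5:138171849-138171878, minus strand, 16), Pola1 (chrX:93632275-93632304, minus strand, -138) and Pold1 (chr7:44548766-44548795, minus strand, 39). That transcript start lies inside the gene as the deposited table bounds it, by 442 bases in Cdc6, 1651 in Lig1, 228 in Mcm7 and 232 in Pola1, and, of the windows above, by 41 in Mcm5 and 3749 in Orc1. In Gins3, Mcm3, Mcm6 and Pold1 it is the start of the gene. A match describes these letters only and is no evidence of binding.
Cdc6: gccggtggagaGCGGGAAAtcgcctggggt
Lig1: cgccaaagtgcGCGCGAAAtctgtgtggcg
Gins3: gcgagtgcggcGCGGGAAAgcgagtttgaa
Mcm3: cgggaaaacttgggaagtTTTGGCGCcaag
Mcm7: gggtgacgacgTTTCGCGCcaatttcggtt
Pola1: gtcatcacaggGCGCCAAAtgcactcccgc
Pold1: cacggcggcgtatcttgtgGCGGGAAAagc

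The libraries held 18.7 to 30.1 M reads, recovered from the TPM steps. Acly fell to 7.01 to 14.4 TPM in untreated ACLYKO libraries, against 392 to 400 TPM in untreated WT libraries. Slc2a3 had 4.0 to 8.20 TPM in untreated GLUT3KO libraries, against 14.4 to 19.8 TPM in untreated WT libraries. The 6 T cell markers summed to 1654 to 2365 TPM in untreated ACLYKO, 3750 to 3975 TPM in untreated GLUT3KO and 2473 to 2776 TPM in untreated WT libraries. The 6 Th17 markers summed to 391 to 512 TPM in untreated ACLYKO, 321 to 399 TPM in untreated GLUT3KO and 1375 to 1580 TPM in untreated WT libraries; all 6 averaged at least 1 TPM in every group, and their sum was lower in both knockouts. The 5 B cell markers summed to at most 5.61 TPM in any library, and the 6 myeloid markers to 4.40 to 9.53 TPM in untreated ACLYKO libraries and 1.29 to 2.75 TPM in untreated WT libraries, with only Cd68 averaging at least 1 TPM and C1qa at 0 in both groups. Of the 4 markers of NK and gamma-delta T cells, which summed to 35.4 to 88.7 TPM in untreated GLUT3KO and 2.04 to 3.54 TPM in untreated WT libraries, 1 gene, Trdc, reached 1 TPM. The part of these marker levels in the results below was not tested. In bulk RNA, more or fewer cells in S phase cannot be told apart from more or less of these RNAs in each cell.

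Untreated ACLYKO replicate 1 stood apart from the other libraries of its group. On the axis that held 63.6% of the variance within groups, it had a score of 90.2. The untreated WT replicate 1 (35.6), untreated GLUT3KO replicates 1 and 3 (31.9 and 4.10) and ACLYKO with acetate replicate 1 (29.5) had the next highest scores. The other 13 libraries lay between -53.5 and 2.22. The 5 with the highest scores were not those farthest from 0. When those 5 were left out, untreated ACLYKO replicates 2 and 3 (-36.6 and -53.5) and untreated GLUT3KO replicate 2 (-36.0) were kept. Across all genes tested, the loading on this axis had a rank correlation of -0.423 with transcript GC content and 0.350 with exon length, as a description. Counts of calls are given with and without these 5 libraries. Without them only replicate 2 of untreated GLUT3KO was left, so no such count is given for comparisons with that group.

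Loss of Acly was accompanied by higher RNA levels of most replication genes. Without acetate 26 of the 39 genes rose in ACLYKO against WT cells and 0 fell (66.7% and 0%), while 12.7% of all genes rose and 6.38% fell at the same threshold (limma, adjusted p under 0.05). With acetate in both cultures 31 rose and 0 fell (79.5% and 0%), against 11.5% and 1.98% of all genes. The median log2 change of the 39 was 0.94 without and 1.26 with acetate, against 0.03 and 0.16 over all genes. Median-ratio scaling moved these medians to 0.88 and 1.05 for the 39 genes and to -0.02 and -0.03 for all genes, and the share of rises among all calls to 52.6% without acetate (66.6% as reported) and 60.6% with it (85.4% as reported). These comparisons share no library, but both come from the fit on all 18 libraries and use the same spread for each gene. Of the 26 genes, 24 (92.3%) were also among the 31, of which they made up 77.4%. The 39 genes together summed to 2798 to 3001 TPM in untreated ACLYKO and 1170 to 1563 TPM in untreated WT libraries, and to 2538 to 3539 TPM in ACLYKO with acetate and 1108 to 1536 TPM in WT with acetate. In 28 of the 39 genes all 3 untreated ACLYKO libraries were above all 3 untreated WT libraries, as in 16.1% of all genes. With acetate this held for 38 genes, as in 38.9% of all genes, and Ung was the 1 gene with all ACLYKO libraries below all WT libraries. With the 5 libraries named above left out, the counts of rises were 37 and 37, and Ung fell with acetate (log2 change -0.52, limma adjusted p = 0.0106). Shares of all genes without these libraries are not given. When the model was fitted on the 6 untreated ACLYKO and WT libraries alone, with no spread borrowed from the other groups, 4 of the 26 calls were left (Tyms, Rfc5, Cdc6 and Prim1) and the other estimates kept their direction.

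**Figure D1:**
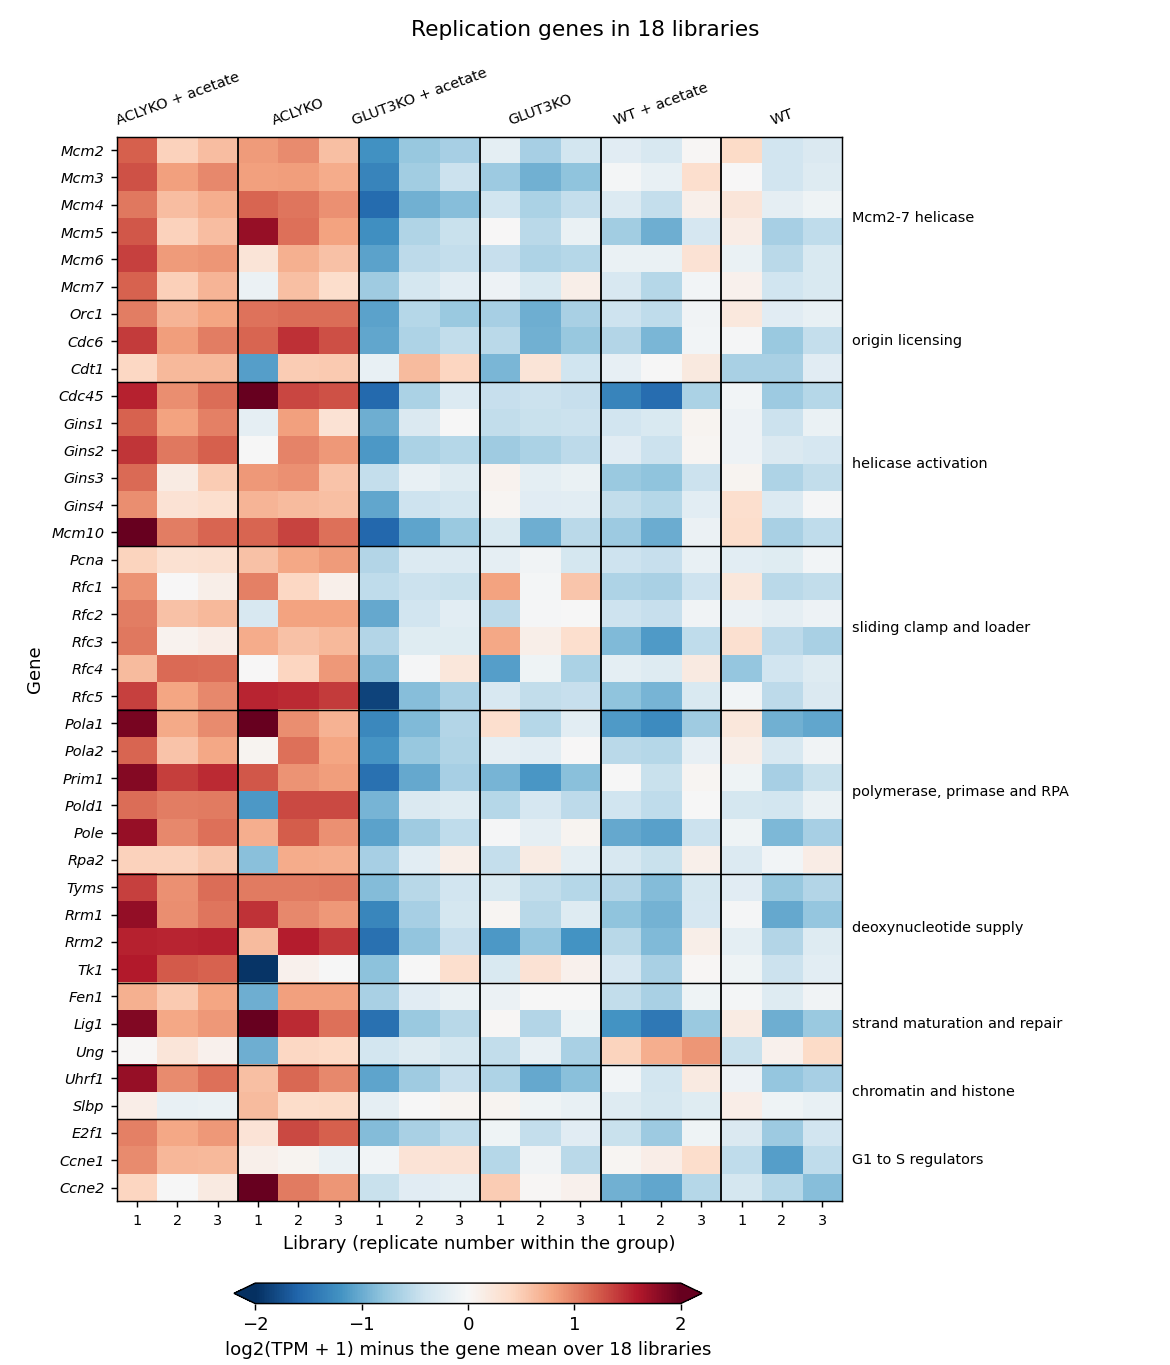
Level of the 39 genes in each of 18 libraries, as log2(TPM + 1) minus the mean of that gene over all libraries (colour scale from -2 to 2), with groups from left to right and roles from top to bottom. The 6 ACLYKO columns on the left are red for most genes, and untreated ACLYKO replicate 1 is blue for Tk1, Pold1, Fen1, Rpa2, Cdt1 and Ung.

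The Mcm2-7 ring, the core of the replicative helicase, rose nearly as a whole. In ACLYKO against WT cells, 5 of its 6 genes rose without acetate and 6 of 6 with acetate. Mcm4 (chr16:15623897-15637400) had 146, 136 and 123 TPM in the untreated ACLYKO libraries and 76.6, 56.7 and 61.0 TPM in the untreated WT libraries. All ACLYKO libraries lay above all WT libraries, with a log2 change of 1.06 ± 0.20 (SE; limma adjusted p = 0.0018). With acetate Mcm4 had 135, 100 and 108 TPM in ACLYKO and 53.3, 46.3 and 69.8 TPM in WT libraries, again without overlap (log2 change 1.02 ± 0.20, limma adjusted p = 0.00347). Mcm5 had 278, 176 and 145 TPM in untreated ACLYKO and 90.8, 51.4 and 57.2 TPM in untreated WT libraries. The ACLYKO libraries were all higher and spread widely, replicate 1 being the highest (log2 change 1.56 ± 0.31, limma adjusted p = 0.00231). The log2 changes of Mcm2, Mcm3 and Mcm6 without acetate were 0.90, 1.01 and 0.84, all past the threshold. The call of Mcm6 was lost on values corrected for GC content and length (0.64, limma adjusted p = 0.0531), and that of Mcm2 without WT replicate 2 (0.75, limma adjusted p = 0.0804) or WT replicate 3 (0.80, adjusted p = 0.0698). With acetate Mcm2 (0.93) lost its call with median-ratio scaling and without WT with acetate replicates 1 or 2 or ACLYKO with acetate replicate 1 (0.71 to 0.90, limma adjusted p = 0.0514 to 0.0955). Mcm7 did not pass without acetate, with 66.4, 110 and 92.4 TPM in ACLYKO and 77.1, 54.6 and 58.3 TPM in WT libraries. These overlapped, because ACLYKO replicate 1 lay below the highest WT library (log2 change 0.48 ± 0.23, limma adjusted p = 0.171). The 6 genes together summed to 755 to 888 TPM in untreated ACLYKO and 347 to 508 TPM in untreated WT libraries.

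Of the licensing factors that load the ring, Cdc6 and Orc1 rose and Cdt1 did not pass. Cdc6, an ATPase that works with the origin recognition complex, had 26.9, 33.2 and 29.4 TPM in untreated ACLYKO and 11.2, 6.43 and 7.89 TPM in untreated WT libraries. The lowest ACLYKO library was above the highest WT library (log2 change 1.72 ± 0.24, limma adjusted p = 0.000204). Orc1, the largest subunit of that complex, had 11.3, 11.5 and 11.5 TPM in untreated ACLYKO and 5.73, 3.92 and 4.23 TPM in untreated WT libraries, close together within ACLYKO and without overlap (log2 change 1.16 ± 0.17, limma adjusted p = 0.000316). With acetate their log2 changes were 1.6 and 1.16, both past the threshold. Cdt1 had 11.2, 36.5 and 36.8 TPM in untreated ACLYKO and 15.8, 15.9 and 21.6 TPM in untreated WT libraries, so that ACLYKO replicate 1 lay below all WT libraries and the other two above (log2 change 0.48 ± 0.38, limma adjusted p = 0.405). Orc1 overlaps Prpf38a (up to 148 TPM) on the opposite strand, and since the counting by strand is not stated, its level is uncertain.

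Among the factors that activate the helicase, 4 of 6 rose without and 6 of 6 with acetate. Cdc45, which binds the ring to make the active helicase, had 134, 60.2 and 58.0 TPM in untreated ACLYKO and 22.5, 13.7 and 15.3 TPM in untreated WT libraries. All 3 ACLYKO libraries were far above WT, replicate 1 most of all (log2 change 2.14 ± 0.36, limma adjusted p = 0.000749; 1.76 without ACLYKO replicate 1, adjusted p = 0.00172). With acetate the change of Cdc45 was 2.35 ± 0.36, the highest of the 39 in that comparison (limma adjusted p = 0.000684). Cdc45 overlaps Ufd1 (up to 84.1 TPM) on the opposite strand. Gins3, a subunit of the GINS complex, had 12.4, 12.9 and 9.92 TPM in untreated ACLYKO and 6.69, 3.80 and 4.24 TPM in untreated WT libraries, with no overlap (log2 change 1.13 ± 0.23, limma adjusted p = 0.0032). Mcm10, which binds the helicase at firing, and Gins2 had log2 changes of 1.47 and 0.86 without acetate and 2.00 and 1.43 with it, all past the threshold; that of Gins2 without acetate was lost by leaving out WT replicates 2 or 3 or ACLYKO replicates 2 or 3 (limma adjusted p = 0.0565 to 0.0692). Gins1 and Gins4 passed with acetate (1.20 and 0.95) and not without it (0.53 and 0.63).

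**Figure D2:**
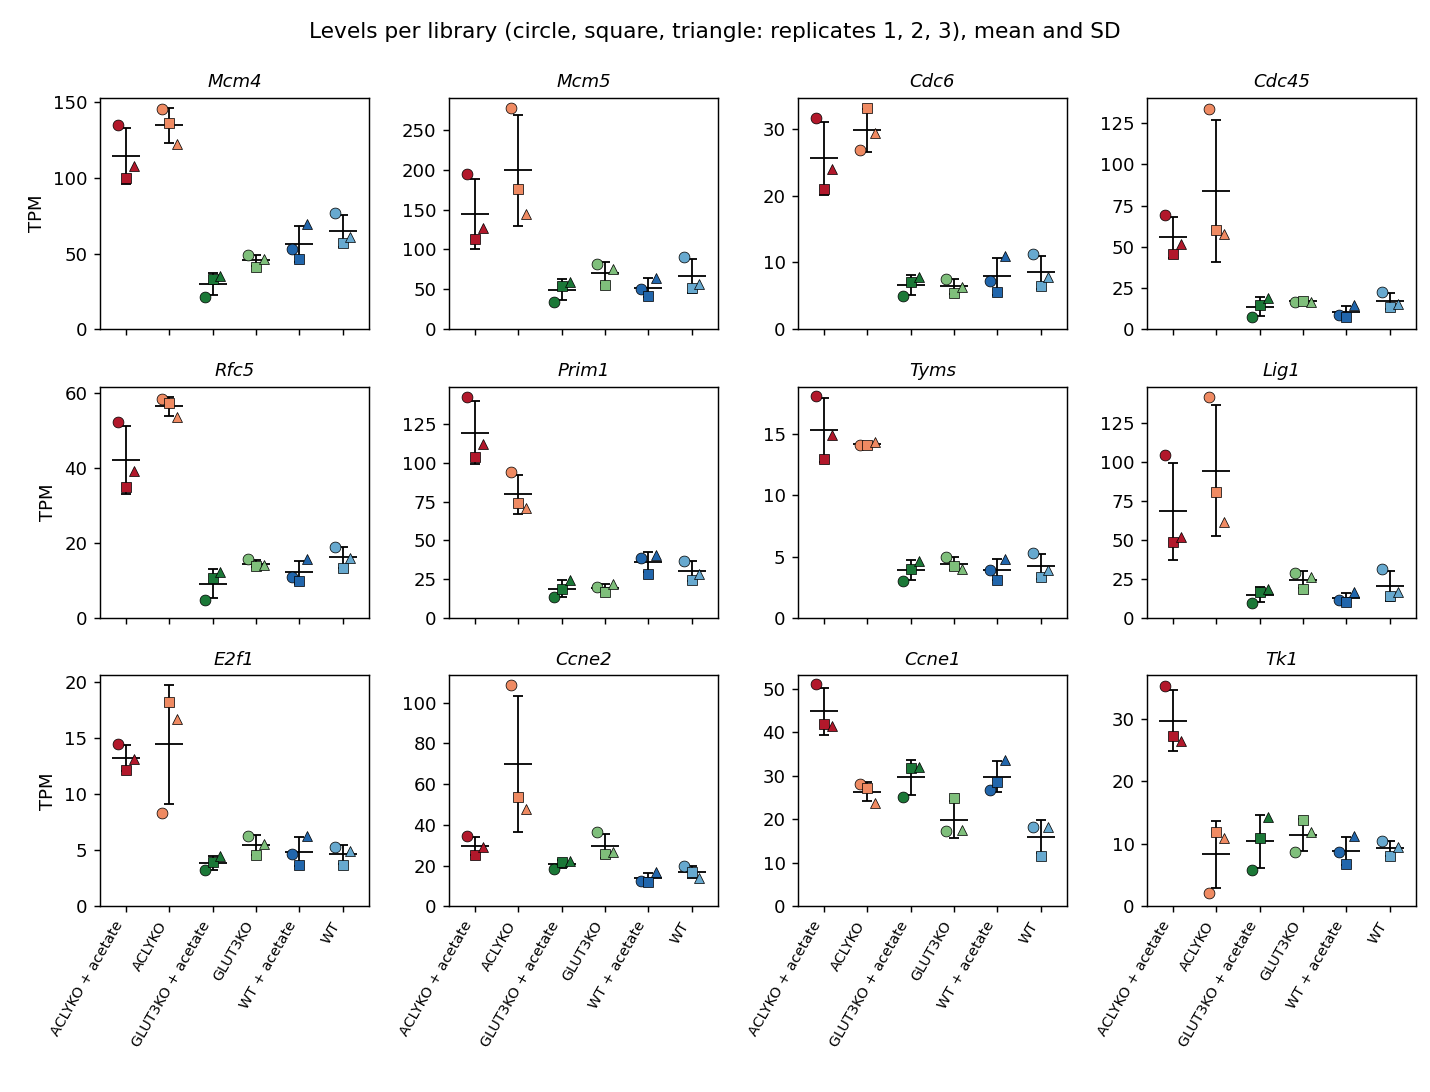
TPM of 12 genes in each library of the 6 groups, with replicates 1, 2 and 3 as circle, square and triangle, and bars for mean and SD (n = 3). The ACLYKO groups stand above the other 4 groups for the first 9 genes, while Ccne2 is highest in untreated ACLYKO (47.8 to 108 TPM) and Ccne1 and Tk1 in ACLYKO with acetate (41.5 to 51.1 and 26.5 to 35.3 TPM).

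Pcna, the ring that tethers polymerases to DNA, rose, as did 2 of 5 loader genes without acetate and 4 of 5 with it. Pcna had 442, 503 and 529 TPM in untreated ACLYKO and 255, 248 and 285 TPM in untreated WT libraries, with no overlap (log2 change 0.90 ± 0.14, limma adjusted p = 0.000375). The pseudogene Pcna-ps2, a near copy looked at after its values were seen, had 199, 126 and 139 TPM in untreated ACLYKO and 69.1, 60.6 and 77.4 TPM in untreated WT libraries, so reads of Pcna may have been split between them. Rfc5, a small loader subunit, had 58.4, 57.2 and 53.6 TPM in untreated ACLYKO and 18.9, 13.4 and 15.9 TPM in untreated WT libraries, far apart (log2 change 1.76 ± 0.26, limma adjusted p = 0.000322). Rfc3 also rose (0.94, limma adjusted p = 0.0354), but its call was lost by leaving out WT replicates 2 or 3 or any ACLYKO library (0.76 to 0.97, limma adjusted p = 0.056 to 0.154). It was also lost with no filter on low values (limma adjusted p = 0.0567) and with the GC and length correction (0.0635). With acetate the calls of Rfc2 (1.07), Rfc3 (1.26) and Rfc4 (1.06) were each lost by leaving out 1 library. For Rfc2 these were WT with acetate replicates 1 or 2 and ACLYKO with acetate replicate 1 (limma adjusted p = 0.0747 to 0.1), for Rfc3 WT with acetate replicate 2 and ACLYKO with acetate replicate 1 (0.0534 and 0.0541), and for Rfc4 WT with acetate replicates 1 or 2 and ACLYKO with acetate replicates 2 or 3 (0.098 to 0.13). With acetate the call of Rfc2 was also lost in the fit by voom on recovered reads (adjusted p = 0.078), and that of Rfc4 there (0.127), with no filter, and with median-ratio and quantile scaling (0.0544 to 0.0828). The loader genes Rfc1, Rfc2 and Rfc4 had log2 changes of 0.78, 0.56 and 0.91 without acetate and did not pass. With replicate numbers as a block, Rfc1 and Rfc4 passed (limma adjusted p = 0.0239 and 0.00507). Rfc4 overlaps the more abundant Eif4a2 (up to 365 TPM) on the opposite strand.

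Of the polymerase, primase and RPA genes, 3 of 6 rose without and 4 of 6 with acetate. Prim1, the catalytic primase subunit, had 94.2, 74.0 and 70.7 TPM in untreated ACLYKO and 36.9, 24.4 and 28.5 TPM in untreated WT libraries, without overlap (log2 change 1.39 ± 0.22, limma adjusted p = 0.000545). With acetate Prim1 had 143, 104 and 112 TPM in ACLYKO and 38.7, 28.4 and 40.3 TPM in WT libraries, again far apart (1.71 ± 0.22, adjusted p = 0.000224). Pole, the catalytic subunit of leading-strand polymerase epsilon, had 18, 25.7 and 20.8 TPM in untreated ACLYKO and 9.91, 5.16 and 6.24 TPM in untreated WT libraries, without overlap (1.50 ± 0.26, limma adjusted p = 0.000922). Pola1, the catalytic subunit of polymerase alpha, rose by 2.10 ± 0.51 (limma adjusted p = 0.0095), with 126, 31.8 and 26.7 TPM in untreated ACLYKO and 19.0, 7.80 and 7.34 TPM in untreated WT libraries. Its ACLYKO replicate 1 stood far above the others, and without it the change was 1.41 (adjusted p = 0.0209). With acetate Pola1 rose by 2.24, a call lost without ACLYKO with acetate replicate 1 (limma adjusted p = 0.0535). Pola2 missed the threshold without acetate (0.73, limma adjusted p = 0.0507) and passed with the replicate block (adjusted p = 0.0475). Pold1, the catalytic subunit of lagging-strand polymerase delta, and Rpa2, a subunit of the single-strand binding protein, did not pass in either condition; their log2 changes were 0.77 and 0.28 without and 1.37 and 0.70 with acetate.

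Among the genes of deoxynucleotide supply 3 of 4 rose without and 4 of 4 with acetate. Tyms (chr5:30038546-30073645), the thymidylate synthase that makes dTMP from dUMP, had 14.2, 14.2 and 14.4 TPM in untreated ACLYKO and 5.31, 3.36 and 3.93 TPM in untreated WT libraries. The ACLYKO libraries were nearly equal and well above WT (log2 change 1.57 ± 0.18, limma adjusted p = 3.83e-05, the smallest of the 39). With acetate Tyms had 18.1, 13.0 and 15 TPM in ACLYKO and 3.92, 3.06 and 4.81 TPM in WT libraries, also far apart (1.73 ± 0.18, adjusted p = 4.33e-05, again the smallest). The pseudogene row Tyms-ps had 1.02 TPM or less in untreated ACLYKO libraries. Rrm1, the large subunit of ribonucleotide reductase, had 209, 150 and 141 TPM in untreated ACLYKO and 75.2, 37.0 and 44.1 TPM in untreated WT libraries, without overlap (1.70 ± 0.31, limma adjusted p = 0.00144). Its small subunit Rrm2 rose by 1.55 without and 1.97 with acetate. Tk1, the cytosolic thymidine kinase that salvages thymidine, did not pass without acetate. It had 2.12, 11.9 and 11.0 TPM in untreated ACLYKO and 10.4, 8.01 and 9.44 TPM in untreated WT libraries, with 1 ACLYKO library below all WT libraries and the other two above them (-0.39 ± 0.43, limma adjusted p = 0.566). With acetate Tk1 had 35.3, 27.2 and 26.5 TPM in ACLYKO and 8.63, 6.73 and 11.3 TPM in WT libraries, with no overlap (1.65 ± 0.43, adjusted p = 0.0195). That call was lost without WT with acetate replicate 1 (1.64, limma adjusted p = 0.0596) or 2 (1.49, adjusted p = 0.0899) or ACLYKO with acetate replicate 1 (1.52, adjusted p = 0.0858). Tk1 overlaps Afmid (up to 4.17 TPM) on the opposite strand.

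Lig1 (chr7:13277175-13311426), the ligase that seals Okazaki fragments, had 141, 80.5 and 61.1 TPM in untreated ACLYKO and 31.5, 13.8 and 16.3 TPM in untreated WT libraries. The groups did not overlap (log2 change 2.14 ± 0.39, limma adjusted p = 0.00135), and without ACLYKO replicate 1 the change was 1.81 (adjusted p = 0.00416). Fen1, the flap endonuclease that acts just before the ligase, had 20.9, 75.2 and 74.8 TPM in untreated ACLYKO and 40.7, 35.1 and 40.0 TPM in untreated WT libraries, so its ACLYKO libraries lay on both sides of WT (0.35 ± 0.35, limma adjusted p = 0.523). Fen1 overlaps Tmem258 (up to 264 TPM) on the opposite strand. Ung, the uracil-DNA glycosylase of base excision repair, had log2 changes of -0.06 ± 0.31 without and -0.57 ± 0.31 with acetate, neither past the threshold (limma adjusted p = 0.904 and 0.269). Ung overlaps Alkbh2 (up to 10.3 TPM) on the opposite strand.

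Uhrf1, which brings DNA methyltransferase to newly copied DNA, had 82.1, 120 and 105 TPM in untreated ACLYKO and 49.8, 31.0 and 33.4 TPM in untreated WT libraries, without overlap (1.42 ± 0.25, limma adjusted p = 0.000982). Slbp, the stem-loop binding protein of histone mRNAs, had 121, 100 and 101 TPM in untreated ACLYKO and 85.0, 72.6 and 69.6 TPM in untreated WT libraries, also without overlap but closer (0.50 ± 0.13, limma adjusted p = 0.014). Its call was lost with median-ratio scaling (0.44, adjusted p = 0.0558) and without WT replicate 2 (adjusted p = 0.0571) or 3 (adjusted p = 0.0675). With acetate Slbp did not pass (0.23, adjusted p = 0.289).

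All 3 regulators of the G1 to S step rose without acetate. E2f1, a transcription factor that activates replication genes, had 8.37, 18.3 and 16.7 TPM in untreated ACLYKO and 5.32, 3.69 and 4.96 TPM in untreated WT libraries, without overlap (1.39 ± 0.24, limma adjusted p = 0.00104). Ccne2 (chr4:11190433-11204779), 1 of the cyclins E that drive Cdk2 at the start of S phase, had 108, 53.6 and 47.8 TPM in untreated ACLYKO and 19.8, 16.8 and 13.7 TPM in untreated WT libraries. All ACLYKO libraries were far above WT (1.91 ± 0.26, limma adjusted p = 0.00015; 1.55 without ACLYKO replicate 1, adjusted p = 6.79e-05). With acetate Ccne2 rose by 1.05, a call lost with median-ratio scaling and without WT with acetate replicates 1 or 2 or ACLYKO with acetate replicate 1 (0.84 to 1.00, limma adjusted p = 0.0557 to 0.0904). Ccne2 overlaps Ints8 on the opposite strand. Ccne1, the other cyclin E, had 28.1, 27.2 and 23.9 TPM in untreated ACLYKO and 18.2, 11.7 and 18.2 TPM in untreated WT libraries, without overlap (0.71 ± 0.19, limma adjusted p = 0.0158; 0.51 without WT replicate 2, adjusted p = 0.0884). Beside the promoters shown above, among the 13 genes with E2F letters in the window 10 rose without acetate, as did 12 of the 19 with a window and no such letters and 4 of the 7 with no window; with acetate these counts were 11, 13 and 7.

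**Figure D3:**
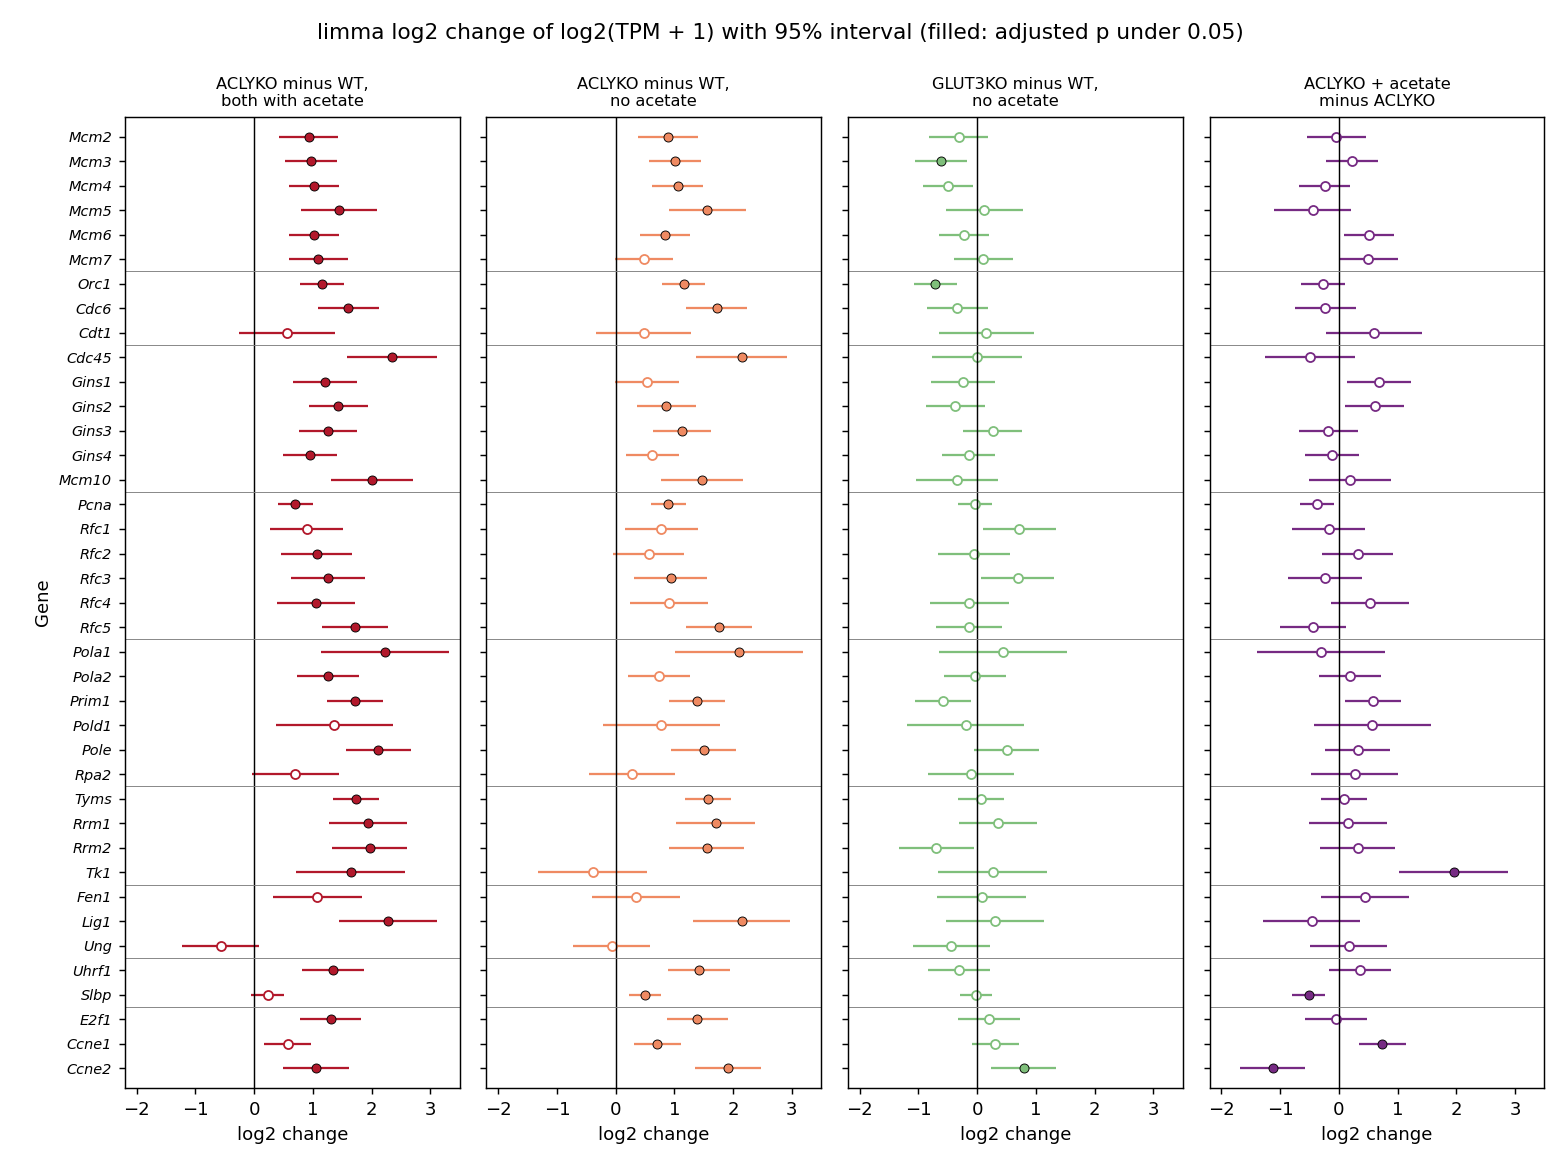
limma log2 change of log2(TPM + 1) of the 39 genes with 95% interval in 4 comparisons, with filled points for adjusted p under 0.05. In the left panels, ACLYKO against WT with and without acetate, 31 and 26 points are filled and all of these lie right of 0, while in the third panel, GLUT3KO against WT without acetate, 3 are filled, and in the fourth, acetate in ACLYKO, 4 are filled on both sides of 0.

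Untreated ACLYKO replicate 1 departed from its 2 fellows gene by gene, from -2.47 to 2.07 on the log2 scale. It was lower by more than 1 for 7 of the 39 genes and higher by more than 1 for 4. Pold1 had 4.05 TPM in replicate 1 against 26.9 and 27.0 TPM in replicates 2 and 3, and Rpa2 had 20.2 against 62.7 and 62.0 TPM. Both were below all WT libraries in replicate 1 and above them in the others, since WT libraries had 7.84, 7.69 and 9.27 TPM of Pold1 and 30.2, 35.4 and 41.1 TPM of Rpa2. The difference of replicate 1 had a rank correlation of -0.563 with the GC content of the transcripts and 0.205 with exon length over the 39 genes, as a description of 1 library. Without this library 34 of 39 genes rose in ACLYKO against WT without acetate and 0 fell, with shares of all genes not given. Pold1 (1.6, limma adjusted p = 4.6e-05), Fen1 (0.94, adjusted p = 0.00104), Rpa2 (0.80, adjusted p = 0.0191) and Cdt1 (1.02, adjusted p = 0.0173) were then among those that rose. Tk1 (0.28) and Ung (0.40) were still short of the threshold. The part of GC content in the full comparison was looked at by a fit on values corrected for GC content and length. It gave 26 rises without acetate and 35 with it, beside 1814 and 1676 of the 13652 genes with GC content. Without acetate the 26 were not all the same genes as before. Mcm6 and Rfc3 (limma adjusted p = 0.0531 and 0.0635) were lost and Rfc1 and Pola2 (adjusted p = 0.0448 and 0.0129) passed.

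**Figure D4:**
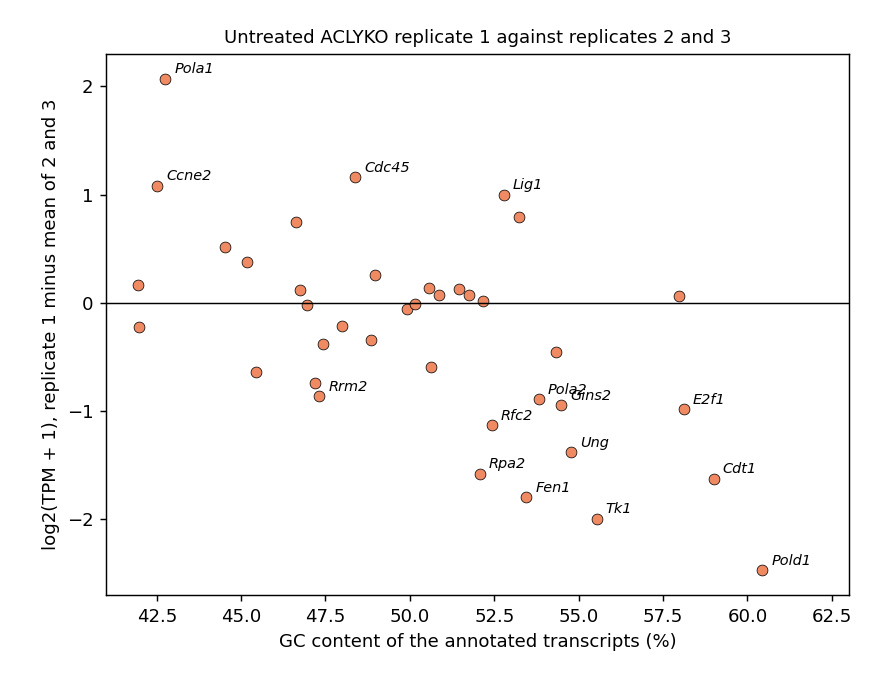
Difference in log2(TPM + 1) between untreated ACLYKO replicate 1 and the mean of untreated ACLYKO replicates 2 and 3 for the 39 genes (y axis), against the GC content of their annotated transcripts in percent (x axis). Pola1 is at 2.07 and Pold1, the gene with the highest GC content, at -2.47.

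Loss of GLUT3 was not accompanied by such a rise. Without acetate 1 of the 39 genes rose and 2 fell in GLUT3KO against WT (2.56% and 5.13%), while 24.9% of all genes rose and 8.47% fell (limma, adjusted p under 0.05). With acetate 0 rose and 6 fell (0% and 15.4%), against 20.9% and 9.5% of all genes. With acetate, 1 of the 39 was higher and 9 lower at an unadjusted p under 0.05, beside 3726 and 1955 of all 14229 genes. Voom on recovered reads called 0 higher and 9 lower there, and its shares of all genes are not given. The median log2 change of the 39 was -0.04 without acetate and -0.13 with it, and that of all genes was 0.17 and 0.08. Scaling by median ratios moved the median of all genes without acetate to -0.02 and that of the 39 to -0.26, so the 39 lay below the median of all genes under both scalings. The share of rises among all called genes was 54.1% with that scaling (74.7% as reported). Of the 39 genes 0 then rose and 7 fell, beside 2631 and 2236 of all 14229 genes. With acetate that share was 57.5% (68.8% as reported). With the 5 libraries set out above left out, 4 rose and 10 fell with acetate, where neither group lost a library. The shares of all genes in that fit are not given. Without acetate only replicate 2 of GLUT3KO was left, so no count is given. These comparisons use the same WT libraries as those of ACLYKO.

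Without acetate Orc1 had 2.64, 1.94 and 2.68 TPM in GLUT3KO and 5.73, 3.92 and 4.23 TPM in WT libraries. The GLUT3KO libraries were all lower (log2 change -0.71 ± 0.17, limma adjusted p = 0.00532). Mcm3 had 62.5, 53.0 and 59.0 TPM in GLUT3KO and 104, 79.8 and 86.6 TPM in WT libraries, also without overlap (-0.62 ± 0.21, limma adjusted p = 0.0317). Ccne2 was the 1 gene that rose, with 36.4, 25.9 and 26.9 TPM in GLUT3KO and 19.8, 16.8 and 13.7 TPM in WT libraries (0.79 ± 0.26, limma adjusted p = 0.0301). The call of Ccne2 was lost with median-ratio and quantile scaling and by leaving out WT replicates 2 or 3 or GLUT3KO replicates 1 or 3 (0.64 to 0.85, limma adjusted p = 0.053 to 0.124). That of Mcm3 was lost without WT replicates 1 or 3 or any GLUT3KO library (-0.67 to -0.51, limma adjusted p = 0.0509 to 0.0947). That of Orc1 held under all 31 alternatives tried. The count of 3 calls became 1 without WT replicate 3 or GLUT3KO replicates 1 or 3, 5 without WT replicate 1, GLUT3KO with acetate replicate 1 or ACLYKO with acetate replicate 1, and 7 without ACLYKO replicate 1.

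With acetate the fall was mostly in the Mcm2-7 ring, of which 4 of 6 genes fell. Mcm4 had 21.5, 32.9 and 35.2 TPM in GLUT3KO and 53.3, 46.3 and 69.8 TPM in WT libraries, without overlap (-0.91 ± 0.20, limma adjusted p = 0.0029). Mcm3 (-0.87), Mcm6 (-0.70) and Mcm2 (-0.71) fell too. Prim1 (-0.92, limma adjusted p = 0.00566) and Ung (-1.0, adjusted p = 0.0221) were the other 2 genes that fell. The level of Ung is uncertain, since it overlaps Alkbh2 on the opposite strand. The calls of Mcm4, Mcm3 and Prim1 held under all 31 alternatives, while those of Mcm6, Ung and Mcm2 were lost under 2, 5 and 6. Leaving out GLUT3KO with acetate replicate 1 or WT with acetate replicate 3 ended all 3 of these calls (limma adjusted p = 0.0896, 0.0625 and 0.153 without the first, and 0.083, 0.0825 and 0.127 without the second) and left 3 genes called, while 10 were called without untreated ACLYKO replicate 1. Cdc45, Tyms, Rrm1, Lig1 and Pcna, which rose in ACLYKO, had log2 changes of 0.33, -0.01, -0.08, 0.19 and -0.04 in this comparison.

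Set directly against each other, the knockouts differed at most of these genes. Without acetate 28 of the 39 were higher in ACLYKO than in GLUT3KO and 0 lower (71.8% and 0%), against 15.2% and 25.2% of all genes (limma, adjusted p under 0.05). With acetate 34 were higher and 0 lower (87.2% and 0%), against 20.0% and 17.7% of all genes. The median log2 difference of the 39 was 1.07 without and 1.55 with acetate, and that of all genes -0.10 and 0.07. With quantile normalization the share of higher genes among all calls was 50.6% without acetate (37.7% as reported), and the median of the 39 was 1.26. Without the 5 libraries, 37 of the 39 were higher and 0 lower with acetate, with shares of all genes not given. No count is given without acetate, since only replicate 2 of untreated GLUT3KO was left. Orc1 had 11.3, 11.5 and 11.5 TPM in ACLYKO and 2.64, 1.94 and 2.68 TPM in GLUT3KO libraries without acetate, the member with the smallest adjusted p (1.87 ± 0.17, limma adjusted p = 8.76e-07). With acetate it was Prim1, with 143, 104 and 112 TPM in ACLYKO and 13.2, 18.8 and 24.3 TPM in GLUT3KO libraries (2.63 ± 0.22, limma adjusted p = 4.38e-07). In both cases the lowest ACLYKO library lay far above the highest GLUT3KO library. Rfc1 and Rfc3 had differences of 0.07 and 0.25 without acetate, neither past the threshold.

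How many of the 39 genes changed with acetate within a genotype depended on the fit. In ACLYKO cells 2 rose and 2 fell with acetate (5.13% each), while 11.7% of all genes rose and 5.6% fell (limma, adjusted p under 0.05). In GLUT3KO cells 0 rose and 0 fell, while 4.86% and 7.89% of all genes did. At an unadjusted p under 0.05, 1 of the 39 was higher and 7 lower there, beside 1482 and 2570 of all 14229 genes. Voom called 1 and 1, for which shares of all genes are not given. The closest was Rfc1 (log2 change -0.91, limma adjusted p = 0.0536), which passed with the replicate block (adjusted p = 0.0307). In WT cells 1 rose and 0 fell (2.56% and 0%), while 4.22% and 2.28% of all genes did. With library weights 21 of the 39 genes were called in ACLYKO, 17 in GLUT3KO and 7 in WT. With the score on the axis within groups as a covariate, 10, 12 and 3 were called. That score was taken from the same values and has the same mean in each group. It leaves the log2 changes as they are and takes out spread within groups, so more calls are largely built in. Shares of all genes under these 2 fits are not given, so their counts are no result about the 39 genes. With median-ratio scaling the share of rises among all calls was 56.9% in ACLYKO (67.6% as reported) and 58.8% in GLUT3KO (38.1% as reported). The 0 calls in GLUT3KO became 6 without untreated ACLYKO replicate 1, 2 without untreated WT replicate 1 or GLUT3KO replicate 2, and 1 without untreated WT replicate 2, ACLYKO replicate 3 or ACLYKO with acetate replicate 1.

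The genes that changed with acetate were Ccne1, Ccne2, Slbp and Tk1. Ccne1 had 51.1, 42.0 and 41.5 TPM in ACLYKO with acetate and 28.1, 27.2 and 23.9 TPM in untreated ACLYKO libraries, without overlap (0.74 ± 0.19, limma adjusted p = 0.0132; 0.64 without ACLYKO with acetate replicate 1, adjusted p = 0.054). In WT cells Ccne1 had 26.8, 28.7 and 33.7 TPM with acetate and 18.2, 11.7 and 18.2 TPM without it, again without overlap (0.87 ± 0.19, limma adjusted p = 0.0114). That call was lost without WT replicate 2 (0.67, adjusted p = 0.0557) or WT with acetate replicate 3 (0.78, adjusted p = 0.0643), and 2 genes were called without untreated ACLYKO replicate 1. In GLUT3KO cells Ccne1 had 25.1, 31.8 and 32.1 TPM with acetate and 17.4, 24.9 and 17.6 TPM without it, separate but close (0.56 ± 0.19, limma adjusted p = 0.0641). Ccne2 fell in ACLYKO cells, with 34.5, 25.4 and 28.9 TPM with acetate against 108, 53.6 and 47.8 TPM without it, all lower with acetate (-1.13 ± 0.26, limma adjusted p = 0.0073). Without untreated ACLYKO replicate 1 its change was -0.77 (adjusted p = 0.0115). Slbp fell as well, to 84.6, 69.4 and 70.7 TPM in ACLYKO with acetate, against 121, 100 and 101 TPM in untreated ACLYKO (-0.52 ± 0.13, limma adjusted p = 0.0123; 0.0574 and 0.0576 without ACLYKO with acetate replicates 2 or 3). Tk1 rose most, with 35.3, 27.2 and 26.5 TPM in ACLYKO with acetate and 2.12, 11.9 and 11.0 TPM in untreated ACLYKO libraries, far apart (1.96 ± 0.43, limma adjusted p = 0.00562). Without untreated ACLYKO replicate 1 its change was 1.29 and still passed (adjusted p = 0.00562). With the replicate block Prim1 rose too (0.58, limma adjusted p = 0.0471). Fitted on the 6 ACLYKO libraries alone, 0 of these 4 calls were left. Without the 5 libraries 2 genes rose and 4 fell in ACLYKO, and 3 rose in WT, with shares of all genes not given.

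Whether acetate acted differently in a knockout and in WT was tested as a difference of changes. Of the 39 genes 0 passed for ACLYKO, where 0.78% of all genes were higher and 0.562% lower, and 0 for GLUT3KO, where the shares were 0.225% and 0.548% (limma, adjusted p under 0.05). At an unadjusted p under 0.05, Tk1 was higher (2.04 ± 0.61, adjusted p = 0.153) and Ccne2 lower (-0.86 ± 0.37, adjusted p = 0.382) for ACLYKO, and 0 genes in either direction for GLUT3KO. Of all 14229 genes, 1114 were higher and 485 lower for ACLYKO at that threshold, and 244 and 741 for GLUT3KO. Untreated ACLYKO replicate 1 had 2.12 TPM of Tk1, against 11.9 and 11.0 TPM in replicates 2 and 3. It had 108 TPM of Ccne2, against 53.6 and 47.8 TPM. The fit by voom on recovered reads called 0 in both, that with library weights 7 for ACLYKO and 6 for GLUT3KO, and that with the axis score 2 for ACLYKO. Shares of all genes under the weighted and axis-score fits are not given.

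Of 67 further genes of origins, forks, polymerases, deoxynucleotides, strand maturation, chromatin and the S phase checkpoint, 39 rose and 1 fell in ACLYKO against WT without acetate (58.2% and 1.49%, median log2 change 0.96), and 38 rose and 0 fell with it (56.7% and 0%, 0.88), beside the 12.7% and 6.38%, and 11.5% and 1.98%, of all genes. In GLUT3KO against WT 2 rose and 5 fell without acetate (2.99% and 7.46%, 0.05), and 1 rose and 8 fell with it (1.49% and 11.9%, -0.09). The shares that fell were near those of all genes, 8.47% and 9.5%. Mcm8, an Mcm relative at work in repair, was among 5 of 11 further origin genes that rose in untreated ACLYKO (12.4 TPM against 3.15 TPM in WT, log2 change 1.70, limma adjusted p = 6.75e-05), as did Gmnn, which encodes the Cdt1 inhibitor geminin (1.49), Orc6 (1.17) and Cdc7 (1.48), the kinase that fires origins. In the fork list 9 of 13 rose, among them Wdhd1 (0.96), Dscc1 (1.78), Recql4 (1.24) and Tipin (1.33). Of the other polymerase and RPA genes 4 of 9 rose, with Rpa1 at 1.00, Prim2 at 1.41, and Pole2 at 0.91. Pold4, the smallest subunit of polymerase delta, was the 1 of the 67 genes that fell, to 12.8 TPM in untreated ACLYKO against 53.1 TPM in untreated WT (-2.25, limma adjusted p = 0.00269). Genes of the further lists are described by group means and log2 changes. Their values without untreated ACLYKO replicate 1 are not given. Of the further deoxynucleotide genes Dck (1.68), which encodes deoxycytidine kinase, Samhd1 (0.90) and Rrm2b (0.71) rose in untreated ACLYKO against WT. In untreated GLUT3KO against WT Samhd1 also rose (1.31), while Dctd and Dut, which supply dUMP, fell (-1.42 and -0.84).

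In strand maturation and repair 9 of 11 further genes rose in untreated ACLYKO against WT, with the exonuclease gene Exo1 at 1.30, Brca2 at 2.03 and Brip1 at 2.24. In replicating chromatin 5 of 9 rose, with the histone chaperone genes Asf1b (1.54) and Chaf1a (1.73), the maintenance methyltransferase gene Dnmt1 (1.57) and Hells (2.07). Of 6 checkpoint genes Chek1 (1.83), Chek2 (1.10) and Atr (0.68) rose. Of 24 E2F, RB and G1 regulators 8 rose and 3 fell in untreated ACLYKO against WT (33.3% and 12.5%, beside 12.7% and 6.38% of all genes). In untreated GLUT3KO against WT 12 rose and 1 fell (50% and 4.17%, beside 24.9% and 8.47% of all genes). In ACLYKO the smallest adjusted p belonged to E2f3 (0.76), another activating E2F gene, Rb1 (1.09), the gene of the retinoblastoma protein, its relative Rbl1 (1.20) and Cdkn2c (1.01). In GLUT3KO the smallest was that of Ccnd1, a cyclin D gene, with 5.93 TPM in GLUT3KO and 0.119 TPM in WT (2.61, limma adjusted p = 1.08e-08), followed by the genes of the cyclin kinase inhibitors Cdkn2c (2.42) and Cdkn1b (2.07) and by Cdk6 (1.31).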

How the data were processed

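Polyadenylated RNA of 18 Th17 cultures was sequenced. The deposited table gives TPM per gene, computed by the authors, with exon lengths; its decimal commas were read as points. The tools named in the submitters' processing notes are STAR 2.7.2b as aligner, featureCounts 1.6.4 as counter, bcl2fastq, cutadapt and DESeq2, with build GRCm38.p6; their settings, strand included, were not stated. TPM times exon length gave whole reads in 100% of values under 500 reads (within 0.01 reads), and 18.7 to 30.1 M reads per library, which set the precision of low genes.

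For the 14229 genes that passed the filter, limma 3.58.1 (R 4.3.3; trend and robust) fitted the 6 group means of log2(TPM + 1) in all 18 libraries together. The pseudocount of 1 understates changes of low genes. Tests were two-sided, with Benjamini-Hochberg adjustment over all genes within each of 11 comparisons (threshold 0.05). The fit was tested on simulated data. The members, lists and alternatives were chosen with earlier results of these data known. Genes given per library were, in each role, the 2 with the smallest adjusted p in untreated ACLYKO against WT, those called against the majority, and the best of each other comparison, with up to 4 genes of each further list; Cdt1, Mcm7, Pola1, Pold1, Rpa2, Mcm3, the pseudogenes and the printed promoters were chosen after their values were seen. Some genes of the further lists are not reported here. GC content came from GENCODE transcripts for 95.9% of genes tested.

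The labels do not say what a replicate number shares. Residuals of same-numbered libraries correlated by 0.120 to 0.548 in the 9 pairs without and with acetate, and by 0.285 to 0.577 in untreated WT and ACLYKO. Numbers were treated as a possible pairing of these samples. Each other comparison of genotypes had a pair under 0.1. Untreated WT and ACLYKO with acetate, which share neither genotype nor treatment, correlated by 0.442 to 0.801, so such correlations cannot show whether numbers pair samples. A block for the number was an alternative fit. Further alternatives were the pseudocount, filter, scaling, samples fitted, library weights, voom on recovered reads, GC and length correction, a score on the main axis within groups as covariate, and leaving out libraries.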

Additional observations from a re-analysis of the deposited data

How the results depend on the processing

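Of 133 calls of a member in a comparison, 80 held under all 31 alternatives, 53 were lost under at least 1, and 0 turned round. The counts of 26 for ACLYKO against WT, 31 with acetate, and 28 and 34 for ACLYKO against GLUT3KO stayed within 1.5 times under all alternatives but 1: fitted on the groups compared alone, the first had 4. That fit gave 0 calls for acetate in ACLYKO (4 as reported), 4 for acetate in GLUT3KO (0 as reported) and 13 for GLUT3KO against WT with acetate (6 as reported). GLUT3KO against WT without acetate (3 as reported) had 1 call with no filter and 7 each with median-ratio and quantile scaling. It had 6 with voom, 5 with GC and length correction, 9 with the axis score and 16 with library weights. With acetate it had 10 with median-ratio scaling, 11 with quantile scaling and 10 with GC and length correction. It also had 11 with the axis score, 14 without the 5 libraries of highest score and 16 with weights. Of all 14229 genes, 2652 were higher and 1964 lower with acetate under median-ratio scaling, and 2417 and 2382 under quantile scaling. Of the 13652 genes with GC content, 3051 and 1547 were called with the correction. Without acetate these counts were 2631 and 2236, 2582 and 2400, and 3335 and 1249. Acetate in WT (1 as reported) had 3 with the axis score, 3 without those 5 and 7 with weights. Acetate in GLUT3KO had 2 each with median-ratio scaling, quantile scaling, voom and GC and length correction. It had 12 with the axis score and 17 with weights. Acetate in ACLYKO had 10 with the axis score and 21 with weights. The differences of changes (0 as reported) had 6 for GLUT3KO and 7 for ACLYKO with weights, and 2 for ACLYKO with the axis score. The axis score leaves the log2 changes as they are and takes out spread within groups, so more calls with it are largely built in. The cause of the other differences was not tested. Shares of all genes under the weighted and axis-score fits are not given. With the replicate block, GLUT3KO against WT had 6 calls, acetate in GLUT3KO 1 and ACLYKO against WT 29. Whether the numbers pair the samples is not known. With 1 library left out, the counts ranged from 21 to 34 for ACLYKO against WT and from 25 to 37 with acetate, from 25 to 33 and 28 to 36 for ACLYKO against GLUT3KO without and with acetate, from 1 to 7 and 3 to 10 for GLUT3KO against WT without and with acetate, from 3 to 6, 0 to 6 and 0 to 2 for acetate in ACLYKO, GLUT3KO and WT, and stayed at 0 for both differences of changes. The highest count of 34 came without ACLYKO replicate 1.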

Other observations

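Genes of the phases after replication are described here as a further list. Of 18 genes of G2 and M phase, 9 rose and 0 fell in untreated ACLYKO against WT cells (50% higher, against 12.7% of all genes; median log2 change 1.46), and 18 rose with acetate (100%, against 11.5%; 2.44). In GLUT3KO against WT 5 rose and 0 fell without acetate (27.8%, near the 24.9% of all genes; 0.93), and 2 rose and 0 fell with it (11.1%, below the 20.9% of all genes; 0.70). Birc5, which encodes survivin of the chromosomal passenger complex, had 27.9 TPM in untreated ACLYKO and 5.91 TPM in untreated WT cells (2.00, limma adjusted p = 0.0016). The mitotic checkpoint kinase gene Bub1 had 21.2 TPM in untreated ACLYKO and 5.09 TPM in untreated WT cells (1.88, limma adjusted p = 0.00215). Ccna2, the cyclin of S and G2 phase, had 51.4 TPM in untreated GLUT3KO and 22.4 TPM in untreated WT cells (1.26, limma adjusted p = 0.0257). In ACLYKO cells 2 of the 18 rose with acetate, Ube2c (1.52) and Aurka (1.15), a share of 11.1% beside 11.7% of all genes.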
